A study of Homo sapiens with 12 samples.

Results

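POU2F2 (OCT2) and POU2F1 (OCT1) encode the octamer-binding POU transcription factors, and they are 2 of the 58735 gene rows counted in THP1 monocytes, an established human monocytic leukemia cell line. POU2F2 was chosen on its values, because it was higher in every endothelial co-culture than in mono-culture. POU2F1, its closest paralog, was taken for comparison and not for its values. Both were among the 25873 genes whose counts summed to 10 or more, over which all tests were run.

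The 4 groups had 3 libraries each. THP1 cells were kept for 24 h without endothelial cells (mono-culture), or at 400000 cells per well above 500000 endothelial cells (ECs) across a membrane with 1 µm pores. The ECs, primary cells of the human umbilical vein, were control ECs given the solvent DMSO, senescent ECs (senECs) made so with etoposide, a topoisomerase inhibitor that damages DNA, or EGCG-treated senECs, given etoposide and then epigallocatechin gallate, the main catechin of green tea. After culture the THP1 cells of every group, mono-culture included, received LPS at 100 ng/ml during 2 h, so that no library stands for unstimulated cells. The libraries carry the replicate numbers 1, 2 and 3 in mono-culture and control EC co-culture, and 1, 2 and 5 in both senEC co-cultures. All groups were kept in endothelial medium. Total counts ranged from 15439836 to 22092600 per library, and the 12 pairs of libraries of a group differed by more than sampling noise (chi-square over its degrees of freedom between 9.23 and 33.7), and each counted as 1 sample. Nothing in the labels says whether replicates are separate cultures, so the p-values measure the spread between these libraries, which may be technical.

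Octamer factors bind the sequence ATGCAAAT through a bipartite POU domain, made of a POU-specific domain and a homeodomain. POU2F1 is made in nearly all cells and serves snRNA and histone H2B genes, among others, while POU2F2 is best known from B cells, where it works with the coactivator OCA-B (POU2AF1) on immunoglobulin and other lymphoid genes. POU2F2 is also present in monocytes and macrophages.

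The octamer itself is what the promoter windows below are shown for. RefSeq promoter windows (GRCh38.p14) run from 250 bases before to 50 bases after a start site. The table held 1 window for POU2F2 and 3 for POU2F1. The printed stretches cover the bases from 250 to 41 before the start, on the strand of the gene, 5′ to 3′, and capitals mark an octamer. The first stretch lies at chr19:42132487-42132696 and the second, before the downstream start of POU2F1, at chr1:167328820-167329029.
POU2F2: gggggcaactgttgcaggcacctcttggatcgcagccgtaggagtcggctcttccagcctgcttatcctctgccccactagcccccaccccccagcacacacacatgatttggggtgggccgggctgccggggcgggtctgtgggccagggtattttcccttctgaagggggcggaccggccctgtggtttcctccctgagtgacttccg
POU2F1: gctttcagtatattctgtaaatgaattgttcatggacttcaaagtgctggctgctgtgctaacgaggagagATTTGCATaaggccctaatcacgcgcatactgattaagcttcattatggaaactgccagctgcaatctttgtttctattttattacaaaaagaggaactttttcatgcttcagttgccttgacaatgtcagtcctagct
The POU2F1 stretch holds ATTTGCAT, the octamer read on the other strand, with 171 bases between it and the start. The POU2F2 window holds no octamer, and neither do the other 2 POU2F1 windows, which overlap each other before the upstream start. The POU2F2 window lies inside the gene, whose 5′ end on the minus strand is at chr19:42196585. Other starts of POU2F2 are not covered by it. Of all 35116 windows of 300 bases in the table, 1.77% held ATGCAAAT or ATTTGCAT. The POU2F2 and POU2F1 windows held no AP-1 letters (TGANTCA, in 7.71% of all windows), no PU.1 letters (GAGGAAGT or ACTTCCTC, 2.59%) and no TATA letters (TATAAA or TTTATA, 11.5%). A match of letters is a description of the sequence and says nothing about binding.

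POU2F2 transcripts were 3.38-fold to 3.75-fold more abundant in THP1 cells of the 3 co-cultures than in mono-culture, and the 3 co-cultures lay close together. The gene (ENSG00000028277.21) lies on the minus strand at chr19:42086110-42196585 of GRCh38, with 20 annotated transcripts, 16 of them protein-coding, and 9072 exonic bases. In mono-culture it had 19.2, 17.4 and 20.2 CPM (counts scaled to a library of 1e+06, by TMM library sizes) in replicates 1, 2 and 3. With control ECs it had 60.7, 65.8 and 65.1 CPM in replicates 1, 2 and 3. With senECs it had 70.8, 68.3 and 53.8 CPM in replicates 1, 2 and 5. All of these co-culture libraries lay above the mono-culture libraries, and senEC replicate 5 was the lowest of them. With EGCG-treated senECs it had 74.4, 71.2 and 67.1 CPM in replicates 1, 2 and 5. The lowest of the 9 co-culture libraries was 2.67-fold above the highest mono-culture library. Each mono-culture library had between 309 and 366 counts of the gene, and each co-culture library between 890 and 1498.

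The group means of POU2F2 were 18.9 ± 1.41 CPM (mono-culture), 63.9 ± 2.76 (control ECs), 64.3 ± 9.18 (senECs) and 70.9 ± 3.64 (EGCG-treated senECs), each with its SD (n = 3). The log2 fold change over mono-culture was 1.76 for control ECs, 1.77 for senECs and 1.91 for EGCG-treated senECs, each with a standard error of 0.12. As linear folds these were 3.38, 3.40 and 3.75. The 3 comparisons share the mono-culture libraries and were used to choose the gene, so no test is given. Separation of this kind, with all 9 co-culture libraries above all 3 of mono-culture, was found for 459 genes (1.77% of those tested), and the opposite for 424 genes (1.64%). Of all genes tested, edgeR's quasi-likelihood test at an adjusted p below 0.05 called 0.0850% higher and 0.0580% lower with control ECs than in mono-culture. With senECs it called 0.193% higher and 0.116% lower, and with EGCG-treated senECs 0.124% higher and 0.0889% lower.

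**Figure D1:**
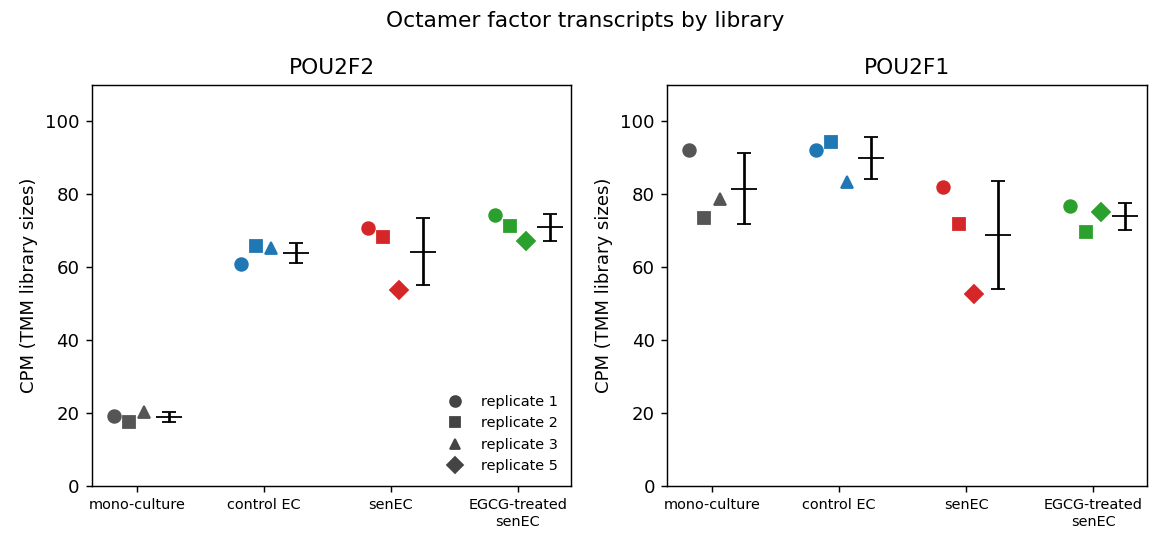
POU2F2 (left) and POU2F1 (right) in CPM for each of the 12 libraries; marker shapes give the replicate number, and bars show the mean ± SD of 3 libraries. All 9 co-culture libraries lie above mono-culture for POU2F2, while POU2F1 is lowest in senEC replicate 5, at 52.8 CPM.

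Whether the kind of endothelial cell made a difference to POU2F2 could be tested, since these comparisons did not choose it. With senECs against control ECs the log2 difference was 0.01 (95% interval -0.22 to 0.24), and edgeR gave an adjusted p of 0.990. The groups overlapped. With EGCG-treated senECs against senECs the difference was 0.14 (-0.09 to 0.37, adjusted p = 1), and these groups overlapped as well. That value was 0.03 without senEC replicate 5 and 0.22 without senEC replicate 1. For EGCG-treated senECs against control ECs the value was 0.15 (-0.08 to 0.38, adjusted p = 0.979 by edgeR), and the lowest EGCG-treated library was 1.02-fold above the highest control EC library. How many of all genes separate in this way was not counted. Differences between co-cultures beyond 1.18-fold (senECs against control ECs) or 1.30-fold (EGCG-treated senECs against either) lie outside the upper bounds of these intervals. No gene was called between any pair of co-cultures by edgeR (0%, 0% and 0% of the 25873 genes), with 1709, 575 and 1177 genes at an unadjusted p below 0.05, and none by DESeq2. In order of mean level POU2F2 ran from mono-culture through control ECs and senECs to EGCG-treated senECs, and the last 3 of these did not differ beyond their spread by the test.

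The mono-culture levels of POU2F1 lay within the range of its co-culture levels. This gene (ENSG00000143190.22) lies on the plus strand at chr1:167220829-167427345, with 17 transcripts, 6 of them protein-coding, and 16078 exonic bases. In mono-culture it had 92.3, 73.4 and 78.8 CPM in replicates 1, 2 and 3. With control ECs it had 92.1, 94.4 and 83.5 CPM in replicates 1, 2 and 3. With senECs it had 82.0, 72.0 and 52.8 CPM in replicates 1, 2 and 5. Mono-culture thus overlapped with both of these co-cultures, and senEC replicate 5 was again the lowest. With EGCG-treated senECs it had 76.9, 69.7 and 75.2 CPM in replicates 1, 2 and 5. The group means were 81.5 ± 9.72, 90.0 ± 5.74, 68.9 ± 14.9 and 73.9 ± 3.76 CPM in the order above (SD, n = 3 each).

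Against mono-culture, the log2 difference of POU2F1 was 0.14 with control ECs (95% interval -0.13 to 0.42), -0.24 with senECs (-0.52 to 0.04) and -0.14 with EGCG-treated senECs (-0.42 to 0.14). None of them passed edgeR's test, with adjusted p of 0.948, 0.531 and 0.824. The upper bound of the interval of the control EC comparison was 1.34-fold. Between co-cultures, POU2F1 was lower with senECs than with control ECs by 0.38 on the log2 scale (log2 difference -0.38, 95% interval -0.66 to -0.11), a fold of 0.766, and all 3 senEC libraries lay below all 3 control EC libraries. The unadjusted p was 0.00878 and the adjusted p by edgeR was 0.728, so it was not called over all genes. With EGCG-treated senECs against control ECs the log2 difference was -0.28 (95% interval -0.56 to -0.01) with an adjusted p of 0.979 by edgeR (0.0442 unadjusted), again without overlap. How many of all genes separate 3 libraries from 3 in this way was not counted. For libraries that vary independently and alike, chance alone gives such a separation, in either direction, with a probability of 0.1. With EGCG-treated senECs against senECs the log2 difference of POU2F1 was 0.10 (-0.18 to 0.38, adjusted p = 1). By mean level the order was senECs, EGCG-treated senECs, mono-culture and control ECs, and no neighbours in this order differed beyond their spread by the test. The order of the first 2 turned on 1 library, since without senEC replicate 5 the difference of EGCG-treated senECs from senECs was -0.06.

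The senEC values moved with single libraries. Without senEC replicate 5 the log2 difference of POU2F1 between senECs and control ECs was -0.22 (adjusted p = 1 by edgeR), and without senEC replicate 1 it was -0.53 (adjusted p = 0.204). Against mono-culture the senEC value of POU2F1 was -0.08 without senEC replicate 5, -0.39 without senEC replicate 1 and -0.14 without mono-culture replicate 1. With 1 library left out, the POU2F1 difference over mono-culture ran from 0.07 (mono-culture replicate 2) to 0.24 (mono-culture replicate 1) with control ECs, and from -0.21 to -0.04 in the same 2 cases with EGCG-treated senECs. In senEC replicate 5 both members lay below their group mean, by a deviation of -0.24 for POU2F2 and -0.35 for POU2F1 on the log2(CPM + 2) scale. This library also stood apart in its long transcripts. The 2820 genes at 1 CPM or more with over 8000 exonic bases, which include both members by their lengths, had a median deviation of -0.08 there, against 0.01 over all genes. In senEC replicate 1 the long genes had a median deviation of 0.07, and POU2F2 and POU2F1 were above their group mean by 0.15 and 0.27. With a trend on gene length in each library as an offset, the log2 difference of POU2F1 between senECs and control ECs was -0.27 (adjusted p = 0.806 by edgeR), and POU2F2 kept log2 folds of 1.75, 1.81 and 1.93 over mono-culture. The part of transcript length in the POU2F1 difference was not tested beyond this. Adjusted p of this POU2F1 comparison, over the alternatives without a term for the replicate number, ranged from 0.158 (all genes with a count) to 1. Fits with such a term gave lower values, and 1 of them passed the threshold (see the closing section).

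**Figure D2:**
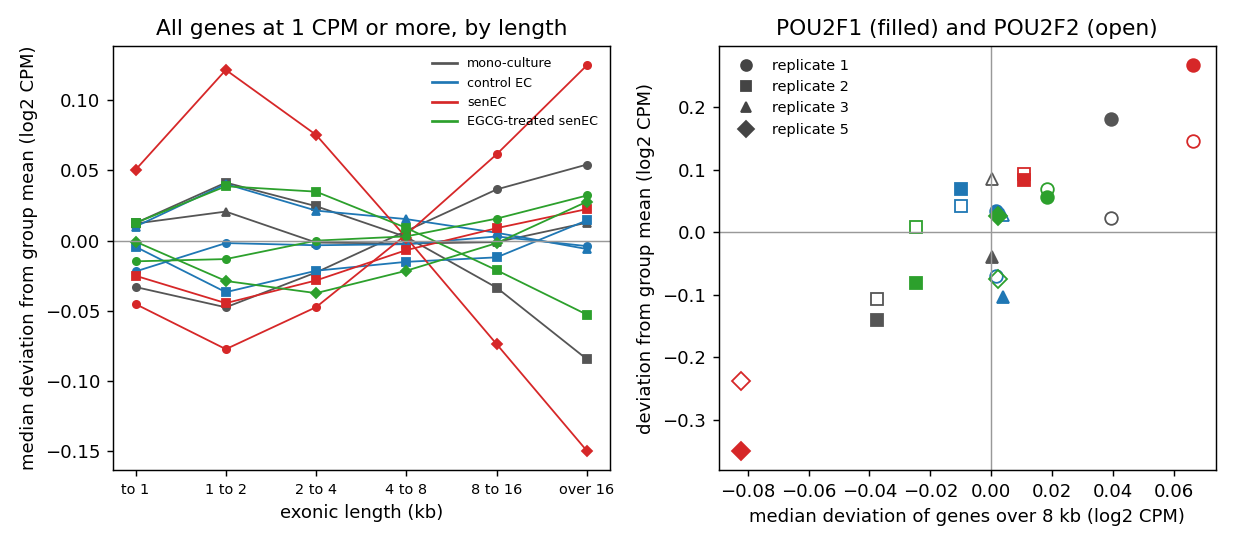
Left, median deviation of genes from their group mean (log2(CPM + 2)) by exonic length, 1 line per library; right, deviations of POU2F1 (filled) and POU2F2 (open) against the median deviation of genes over 8 kb in the same library. Long genes were lowest in senEC replicate 5 and highest in senEC replicate 1, at -0.08 and 0.07, and both members were lowest and highest in the same 2 libraries.

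Levels of the 2 genes can be set side by side only per length. In FPKM, computed from the TMM-scaled counts and the exonic lengths, POU2F2 had 2.09 ± 0.155 in mono-culture and POU2F1 had 5.07 ± 0.604. With control ECs POU2F2 had 7.04 ± 0.304 and POU2F1 5.60 ± 0.357. With senECs the values were 7.09 ± 1.01 for POU2F2 and 4.29 ± 0.924 for POU2F1. POU2F1 was thus the more abundant of the pair in mono-culture and POU2F2 in these co-cultures. With EGCG-treated senECs the values were 7.82 ± 0.401 for POU2F2 and 4.60 ± 0.234 for POU2F1. Of the genes above 1 FPKM, 80.0% had a higher level than POU2F2 in mono-culture, and 45.6%, 47.1% and 43.8% did in the co-cultures with control ECs, senECs without EGCG and EGCG-treated senECs. For POU2F1 these shares were 55.5% in mono-culture and 52.2%, 61.4% and 58.8% in the co-cultures in the same order. An FPKM over all annotated exons takes no account of which of the many transcripts were made.

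The FPKM ratio of POU2F2 to POU2F1, in which a factor common to both genes in a library cancels, was 0.369, 0.420 and 0.453 in mono-culture replicates 1, 2 and 3. It was 1.17, 1.24 and 1.38 with control ECs in replicates 1, 2 and 3. With senECs it was 1.53, 1.68 and 1.81 in replicates 1, 2 and 5. The ratio therefore lay below 1 in every mono-culture library and above 1 in every one of these co-culture libraries. With EGCG-treated senECs it was 1.71, 1.81 and 1.58 in replicates 1, 2 and 5. POU2F2 was chosen for its rise over mono-culture, so the gap of the ratio from mono-culture is no separate result. The means were 0.414 ± 0.042, 1.26 ± 0.109, 1.67 ± 0.138 and 1.70 ± 0.115 (SD, n = 3). Between co-cultures the log2 ratio exceeded that of control ECs by 0.41 with senECs and by 0.43 with EGCG-treated senECs, without overlap in either. The 2-sided exact permutation p was 0.1 for both, the smallest that 3 libraries against 3 allow and so above 0.05 by design, and 0.15 after adjustment over the 3 comparisons made. With EGCG-treated senECs against senECs the log2 difference was 0.03 (exact permutation p = 0.7, adjusted p = 0.7). A library effect that depends on length need not cancel, since POU2F2 has 9072 exonic bases and POU2F1 16078. In senEC replicate 5 the median deviation was -0.07 for genes of 8000 to 16000 exonic bases and -0.15 for longer ones. The part of length in the ratio was not tested.

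**Figure D3:**
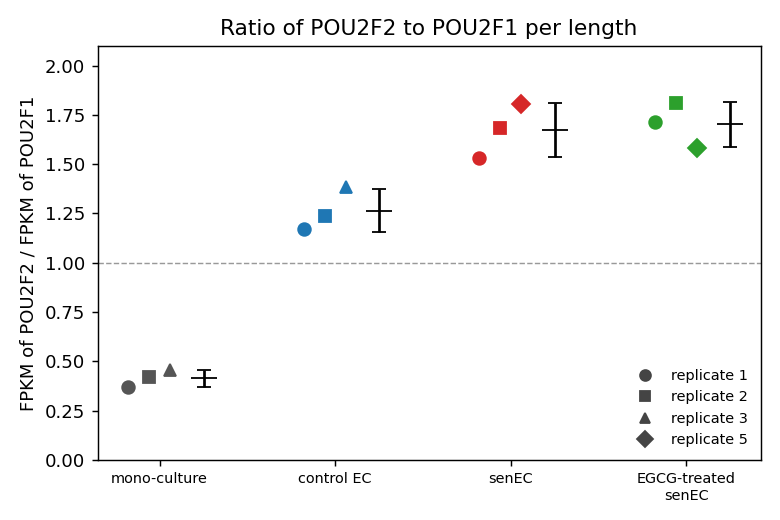
Ratio of the FPKM of POU2F2 to that of POU2F1 in each library, with the mean ± SD of 3 libraries; the dashed line marks equal levels per length. The mono-culture libraries lie between 0.369 and 0.453 and the 9 co-culture libraries between 1.17 and 1.81. POU2F2 was chosen for its rise over mono-culture, so this gap is no separate result.

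Of the 16 POU family genes, 15 had a count and 11 were tested, 6 of them at a mean of at least 1 CPM. The 9 tested besides both members gave no call in any of the 6 comparisons by edgeR or DESeq2. At an unadjusted p below 0.05 these 9 held 0 genes in each comparison with mono-culture, where 6.52%, 11.0% and 8.58% of all genes tested lay below it with control ECs, senECs without EGCG and EGCG-treated senECs. Between co-cultures they held 1 with senECs against control ECs (6.61% of all genes) and 0 in the other 2 comparisons (2.22% with EGCG-treated senECs against senECs and 4.55% against control ECs). The median log2 fold change of the 11 over mono-culture was 0.01, 0.07 and -0.04 in the co-cultures with control ECs, senECs without EGCG and EGCG-treated senECs, and that of all genes tested was 0.01, -0.02 and 0.00. POU4F2, a factor of retinal and sensory neurons, was next in level with 15.2 ± 2.81 CPM in mono-culture and up to 16.4 in the co-cultures. POU4F1, its paralog of sensory neurons, had from 3.83 to 4.03 CPM in the 4 groups. POU6F1 had from 1.08 to 1.42 CPM, and POU5F1 (OCT4), the pluripotency factor, a mean of 1.05 CPM over all libraries. The third octamer-binding gene of the subfamily, POU2F3, a factor of tuft cells, had 7 counts in all 12 libraries together.

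The coactivators and partners of octamer factors gave no call by edgeR in any comparison. POU2AF1, which encodes OCA-B, had 3 counts over the 12 libraries, and C11orf53 (POU2AF2), a coactivator for POU2F3, had 0 counts. Of 15 listed genes 13 were tested, and their median log2 fold change over mono-culture was 0.19, 0.16 and 0.13 in the same order, with 1, 4 and 3 genes at an unadjusted p below 0.05 (6.52%, 11.0% and 8.58% of all genes tested). With senECs, DESeq2 called 2 of them, GAPDH and LDHA, glycolytic enzymes also found in the OCA-S complex of POU2F1 at the H2B promoter. GAPDH had 751 ± 9.78 CPM in mono-culture and 858 ± 68.4, 1057 ± 180 and 949 ± 98.0 CPM in the co-cultures with control ECs, senECs without EGCG and EGCG-treated senECs. LDHA had 816 ± 18.7 CPM in mono-culture and 991 ± 105, 1145 ± 156 and 1071 ± 129 CPM in the co-cultures in the same order. Both had an adjusted p of 0.084 with senECs against mono-culture by edgeR. HCFC1, a large chromatin cofactor bound by POU2F1 on viral promoters, had from 354 to 383 CPM in the 4 groups. SNAPC4, the subunit of the snRNA-activating complex that contacts POU2F1, had 69.6 ± 8.06 CPM in mono-culture and from 76.8 to 86.9 in the co-cultures.

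Genes reported as targets of octamer factors showed no call either. Of 18 listed genes, 16 had a count and 12 were tested, with a median log2 fold change over mono-culture of -0.18, -0.21 and -0.14 in the order above. At an unadjusted p below 0.05 the comparisons with mono-culture held 0, 1 and 0 of them (6.52%, 11.0% and 8.58% of all genes), and DESeq2 called none. CD36, a scavenger receptor, had 250 ± 40.6 CPM in mono-culture and from 212 to 236 in the co-cultures. BTK, a cytoplasmic kinase of B cell receptor signalling, had from 75.5 to 82.0 CPM in the 4 groups. BCL2, an inhibitor of apoptosis, had 68.2 ± 9.18 CPM in mono-culture and 72.3 ± 8.59, 57.4 ± 12.1 and 63.8 ± 3.80 with control ECs, senECs without EGCG and EGCG-treated senECs. GADD45A, a stress-response gene, had from 58.0 to 67.1 CPM. Some lymphoid targets had almost no counts, with 1 count in all libraries for IGHM, 1 for MS4A1 (CD20) and 0 for IL2.

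**Figure D4:**
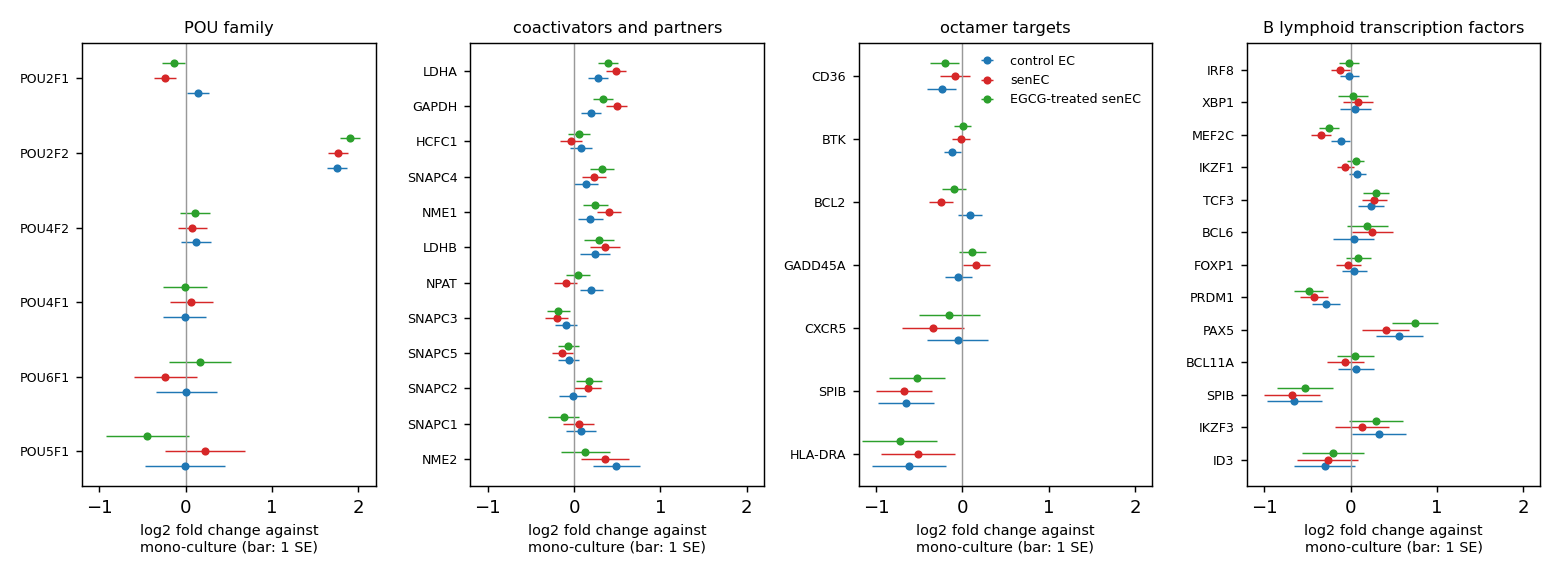
Log2 fold change over mono-culture (points, bars 1 standard error by edgeR) in the 3 co-cultures, for the members of 4 gene lists with a mean of at least 1 CPM, ordered by level. POU2F2, at 1.76 to 1.91, lies apart from the other genes of the 4 lists. It was chosen by these same comparisons, so its place apart is no separate result.

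The H2B histone genes, classical POU2F1 targets, had low counts in these libraries. All 17 tested were above 0 in log2 fold change with control ECs against mono-culture (median 1.39), and all 17 were below 0 with senECs against control ECs (median -1.75), yet none was called by edgeR or DESeq2. At an unadjusted p below 0.05 there were 8 and 11, beside 6.52% and 6.61% of all genes tested. Control EC replicate 2 stood apart here. Its summed H2B level was 74.5 CPM against 16.8 to 26.4 in the other 11 libraries, and 15 of the 17 genes had their highest value in it. With senECs and EGCG-treated senECs against mono-culture the medians were -0.22 and -0.20. The most abundant member, HIST1H2BH, had 7.09 ± 0.213 CPM in mono-culture and 7.85 ± 0.893, 6.25 ± 1.50 and 7.80 ± 0.863 CPM in the co-cultures. HIST1H2BK had from 3.58 to 5.67 CPM, and HIST2H2BE and HIST2H2BF had up to 4.85 and 5.85 CPM, with control ECs, where their SDs were 3.98 and 7.23. HIST2H2BF thus varied more among the control EC libraries than the group means differed.

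The letters of the octamer were found in a promoter window of 598 of the 27305 genes in the RefSeq table. Of 251 such genes that were tested, edgeR called 0, 1 and 1 higher than in mono-culture, and 0, 2 and 2 lower, in the same order of co-cultures. Among the 12574 tested genes whose windows lacked the octamer, 16, 40 and 23 were called higher and 12, 24 and 16 lower. The median log2 fold change of the 251 genes was -0.02, -0.05 and 0.00, against 0.00, 0.02 and 0.02 for the genes without it. The called ones were 4 genes, and the stretch around their octamer is given here to show its position; capitals mark the octamer.
ATP6V1C2: ggacggcccgtATGCAAATatcctgcgggg
SEL1L3: ggATGCAAATcaaatacaaac
LIPG: gggaataaattATGCAAATcaccatctggc
SBNO2: actaaaccgacATGCAAATgcagccgggcg
All 4 carry ATGCAAAT in the direction of the gene. Between its last base and the start lie 64 bases in ATP6V1C2 (chr2:10721547-10721576), 240 in SEL1L3 (chr4:25863796-25863816, cut at the edge of the window), 64 in LIPG (chr18:49561974-49562003) and 42 in SBNO2 (chr19:1132253-1132282), all GRCh38.p14. SBNO2, a transcriptional co-regulator of the interleukin-10 response, had 130 ± 11.0 CPM in mono-culture and 181 ± 10.1, 198 ± 1.83 and 197 ± 18.4 CPM in the co-cultures with control ECs, senECs without EGCG and EGCG-treated senECs. Its log2 fold change was 0.60 ± 0.10 (SE) both with senECs (adjusted p = 0.00852 by edgeR) and with EGCG-treated senECs (adjusted p = 0.0125). The control EC comparison of SBNO2 missed the threshold (log2 fold change 0.47, adjusted p = 0.0765). Its call was lost without mono-culture replicate 2 or 3 in both comparisons, without senEC replicate 2 or in only the 6 libraries compared in the first and without EGCG-treated senEC replicate 5 in the second, with an adjusted p of up to 0.0942 and 0.120 over the alternatives without a term for the replicate number.

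The other 3 genes were lower than in mono-culture. SEL1L3 had 228 ± 5.87 CPM in mono-culture and 180 ± 8.19, 143 ± 18.5 and 155 ± 14.5 with control ECs, senECs without EGCG and EGCG-treated senECs. Its log2 fold change was -0.67 with senECs (adjusted p = 0.00610 by edgeR) and -0.56 with EGCG-treated senECs (adjusted p = 0.0290). LIPG, which encodes endothelial lipase, fell from 12.1 ± 4.34 CPM to 3.49 ± 1.76 with senECs (log2 fold change -1.79, adjusted p = 0.0272 by edgeR). ATP6V1C2, a subunit of the vacuolar proton pump, fell from 15.7 ± 4.97 CPM to 7.61 ± 1.28 with EGCG-treated senECs (log2 fold change -1.05, adjusted p = 0.0384 by edgeR). Single libraries decided some of these calls. The SEL1L3 call with senECs was lost without senEC replicate 2 and in only the 6 libraries compared (highest adjusted p over the alternatives 0.0533). With EGCG-treated senECs it was lost without any 1 of EGCG-treated senEC replicates 2 and 5, control EC replicate 2, the 3 mono-culture replicates and senEC replicate 2 (up to 0.192). The LIPG call was lost without mono-culture replicate 2 or 3 or senEC replicate 5 (up to 0.205), and the ATP6V1C2 call without any 1 of EGCG-treated senEC replicates 2 and 5, control EC replicates 1 and 2, mono-culture replicates 2 and 3 and senEC replicate 2 (up to 0.244). Both calls were also lost with edgeR's filterByExpr and in only the 6 libraries compared. The 4 genes were 4.71% of the 85 genes called in any comparison that have a window, beside 1.96% of the 12825 tested genes with one, and no test was made of this.

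The transcription factors that accompany POU2F2 in B cells did not pass the test in these libraries. Of 16 B lymphoid transcription factors, all tested, none was called in any comparison by edgeR or DESeq2, with 1, 4 and 3 at an unadjusted p below 0.05 against mono-culture (6.52%, 11.0% and 8.58% of all genes tested) and medians of 0.05, -0.06 and 0.04. PAX5, the B cell commitment factor, had 5.64 ± 0.690 CPM in mono-culture and 8.32 ± 3.76, 7.43 ± 2.47 and 9.44 ± 1.43 CPM in the co-cultures with control ECs, senECs without EGCG and EGCG-treated senECs (adjusted p from 0.436 to 0.767 by edgeR). IRF8, a factor of monocytes and B cells alike, had from 628 to 682 CPM in the 4 groups. XBP1, of the secretory stress response, had from 247 to 263 CPM. MEF2C had 159 ± 15.1 CPM in mono-culture and from 125 to 146 in the co-cultures, and IKZF1, which encodes Ikaros, had from 122 to 134 CPM.

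Markers were used to check the cells. All 12 monocyte markers were detected in every library, summing to between 2177 and 3763 CPM, led by ITGB2 (1455 to 1696 CPM by group), the integrin beta chain of leukocytes. SPI1, which encodes PU.1, had 245 ± 18.8 CPM in mono-culture and 269 ± 5.07, 325 ± 53.2 and 313 ± 7.59 CPM in the co-cultures. Against mono-culture, DESeq2 called 3 monocyte markers with senECs, CD14, FCGR1A and SPI1, and 1 with EGCG-treated senECs, FCGR1A. By edgeR 1 monocyte marker was called, CD14, the LPS co-receptor. It had 8.92 ± 2.67 CPM in mono-culture and 38.2 ± 25.1 with senECs (log2 fold change 2.09, adjusted p = 0.0363 by edgeR). That call was lost without any 1 of the 3 mono-culture replicates, control EC replicate 2, senEC replicates 2 and 5 and EGCG-treated senEC replicate 2, with filterByExpr and in only the 6 libraries compared, with an adjusted p of up to 0.258. The 12 endothelial markers summed to between 21.8 and 27.9 CPM in mono-culture and between 25.3 and 34.8 CPM in the co-cultures, most of it EGFL7. The defining endothelial gene CDH5 had 2 counts in all 12 libraries and MMRN1 had 0, and no endothelial marker was called. Of the B cell markers, MS4A1 had 1 count in all 12 libraries and BLK had 0. In bulk RNA a gain of cells of one type and more RNA per cell cannot be told apart.

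The genes around the members gave no call. Within 250 kb of POU2F2 the annotation held 32 genes, of which 24 were tested. The 13 with a mean of at least 1 CPM had log2 fold changes over mono-culture from -0.26 to 0.34 with control ECs, from -0.23 to 0.53 with senECs and from -0.31 to 0.40 with EGCG-treated senECs. The nearest of them were DEDD2, at a distance of 2013 bases, and ZNF574, at 4561 bases. Around POU2F1 there were 18 genes, 12 of them tested and 4 at 1 CPM or more. A few lowly counted genes overlap the members, namely AC010247.1 (3 to 20 counts per library), AC010247.2 (2 to 5) and MIR4323 (0 to 2) for POU2F2 and AL136984.1 (2 to 19) for POU2F1. Whether counting used the strand is not given in the sources used here, so reads of overlapping antisense genes cannot be told apart from those of the members.

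The genes most like POU2F2 were found by Pearson correlation of log2(CPM + 2) over the 12 libraries among 14358 other genes at 1 CPM or more, as a description in which all points share the same libraries and groups. MUC1, a membrane mucin, came first with r = 0.955, followed by DUSP3, a dual-specificity phosphatase (0.952), and STAT3, the transcription factor of interleukin-6 family signalling (0.946). PDCD11, a ribosome biogenesis factor, had 0.933 and SLC38A5, an amino acid transporter, 0.929. MUC1 had 10.5, 5.81 and 7.82 CPM in mono-culture, 28.1, 28.4 and 22.8 with control ECs, 34.0, 25.9 and 27.6 with senECs, and 40.1, 24.0 and 25.9 with EGCG-treated senECs. Its log2 fold changes over mono-culture, 1.72, 1.86 and 1.90, were near those of POU2F2. DUSP3 (0.58, 0.57 and 0.65) and STAT3 (0.67, 0.63 and 0.62) shared the pattern with smaller folds, and PDCD11 and SLC38A5 had log2 folds of at most 0.28 and 0.40. A correlation with POU2F2 above 0.9 was found for 23 genes.

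**Figure D5:**
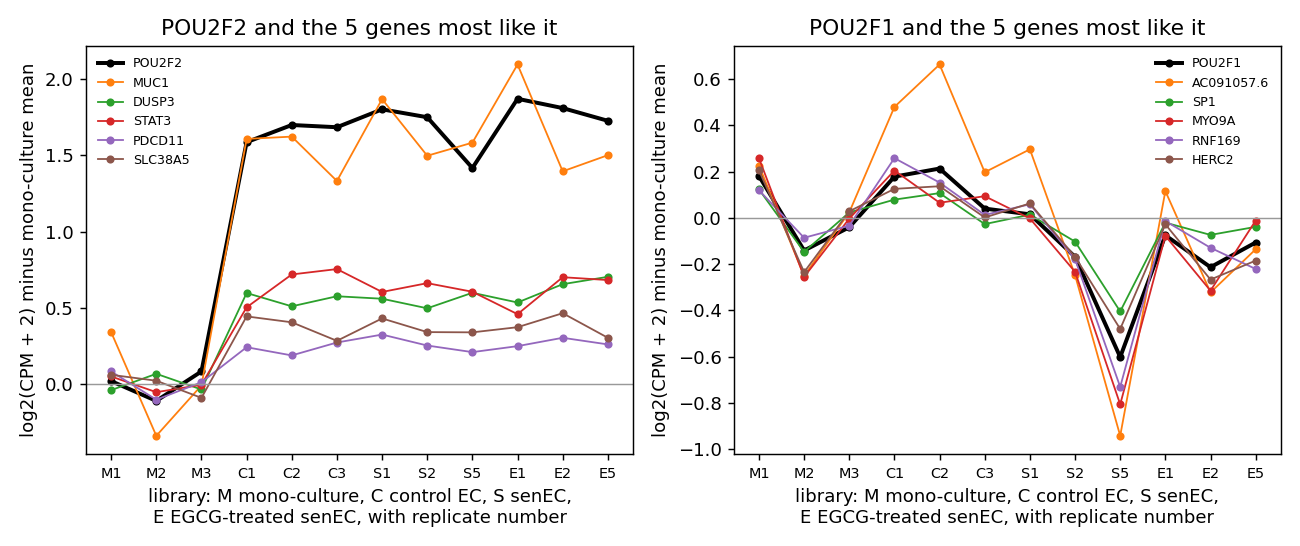
Log2(CPM + 2) minus the mono-culture mean in each library for POU2F2 (left) and POU2F1 (right) with the 5 genes most like each. The genes were picked by correlation over these same libraries and so follow each member. Those on the left separate mono-culture from co-culture, and those on the right fall in senEC replicate 5.

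The genes most like POU2F1 were AC091057.6 (0.964), SP1 (0.963), MYO9A (0.960), RNF169 (0.959) and HERC2 (0.952). SP1 encodes a transcription factor of GC boxes, MYO9A an unconventional myosin, RNF169 a ubiquitin ligase of the DNA damage response and HERC2 a very large ubiquitin ligase. All 5, picked by their likeness to POU2F1 over these libraries, were lowest in senEC replicate 5 as POU2F1 was. None of them was called in any comparison. A correlation with POU2F1 above 0.9 was found for 84 genes. Between POU2F2 and POU2F1 the correlation over the 12 libraries was -0.10 with group differences kept, and 0.77 for deviations from the group means, where the libraries of low and high long genes are shared. By such deviations the genes most like POU2F2 were DCAF8 (0.964), C12orf49 (0.956) and MAT2A (0.951), which makes S-adenosylmethionine, and those most like POU2F1 were SP1 (0.977), TET3 (0.969) and AC091057.6 (0.964). Correlations were computed for 2 members by 2 measures and carry no test.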

How the data were processed

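RNA of LPS-stimulated THP1 cells was sequenced in 4 groups of 3 libraries, grouped by the sample labels. As deposited by the authors, the table holds whole-number counts of reads on each gene, not normalized, from cleaned reads aligned with HISAT2 to hg38 per the submitters' notes. The counting program and the annotation are not given in the sources used here. All 57169 distinct symbols match GENCODE release 29 (GRCh38), from which positions and exonic lengths were taken, and 1741 rows share a symbol. A further 4 columns match no described sample and were left out.

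Tests used edgeR 4.0.16 in R 4.3.3 (quasi-likelihood, TMM, 12 libraries in 1 model, a sum of 10 or more counts per gene, Benjamini-Hochberg adjustment over all 25873 genes, threshold 0.05). Standard errors are the absolute log2 fold change over the root of F. Log2 CPM added a pseudocount of 2. Alternatives were DESeq2 1.42.0, its size factors, no filter, filterByExpr, only the 6 libraries compared, a replicate term, each library left out, and, chosen after seeing the data, a length offset and a joined replicate term. The script was tested on simulated counts. Tables and figures were made in Python 3.11.15 (pandas 2.3.3, numpy 2.4.6, matplotlib 3.10.9).

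The members and gene lists were chosen with earlier results of these data known. Named genes are the members, the 5 genes most like each over all values and the 3 most like each by deviations, called members and up to 4 of the highest level of each list, and called genes within 250 kb. Genes outside this rule were named after their values were seen.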

Additional observations from a re-analysis of the deposited data

How the results depend on the processing

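Every log2 fold change of POU2F2 over mono-culture stayed positive under the 20 alternatives, from 1.69 to 2.02. The gene was chosen by these comparisons in the same libraries, so the steady sign is a description and no test. POU2F1 never passed the threshold against mono-culture. With senECs against control ECs it passed in 1 alternative. POU2F2 with senECs against control ECs, near 0, turned sign under DESeq2 (-0.003), DESeq2 size factors (-0.0032), filterByExpr (-0.005) and only the 6 libraries compared (-0.0017), and ran from -0.0661 to 0.1222 with 1 library left out. POU2F1 with EGCG-treated senECs against senECs ran from -0.0582 (without senEC replicate 5) to 0.2453, and the log2 ratio of the pair in that comparison from -0.036 to 0.0838. The cause was not tested. The printed intervals give what 3 libraries per group could resolve.

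The counts of called genes, 37, 80 and 55 for control EC, senEC and EGCG-treated senEC co-culture against mono-culture, were 120, 347 and 230 by DESeq2, 223, 588 and 377 with no filter, and 20 and 35 (senECs, EGCG-treated senECs) in only the 6 libraries compared. With 1 library left out the first ran from 11 (mono-culture replicate 2 left out) to 44, the second from 19 (senEC replicate 2) to 255 (senEC replicate 1) and the third from 12 (mono-culture replicate 2) to 100 (senEC replicate 5). Between co-cultures, 0 in each, they were 114 (senECs, control ECs), 14 (EGCG-treated senECs, senECs) and 43 (EGCG-treated senECs, control ECs) with no filter, and from 0 to 1 without 1 library in the first and the last. DESeq2 called 2 coactivators and 3 monocyte markers with senECs and 1 monocyte marker with EGCG-treated senECs, all against mono-culture. With 1 library left out, coactivators with senECs, and monocyte markers with senECs and with EGCG-treated senECs, ran from 0 to 2.

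Libraries with the same replicate number correlated in their deviations from the group means in 14 pairs at 0.033 to 0.578, of which 10 were over 0.1. The 4 pairs of number 3 with number 5 ran from 0.369 to 0.535. The other 36 pairs, of different number, ran from -0.561 to 0.218, with 4 over 0.1. Libraries of a number thus tended to deviate together. No label says what a number marks, so the samples were not treated as paired, and the main fits leave this shared part in their spread. With 3 and 5 joined, each of the 12 libraries had its best partner in another group under its own number, a hint from the data and not from the design. A replicate block gave 469, 709 and 424 called genes against mono-culture and 153, 13 and 34 between co-cultures, and the block with 3 and 5 joined, chosen after seeing the data, gave 400, 1407 and 782, and 268, 1 and 60. Under the replicate block POU2F2 with EGCG-treated senECs had a log2 fold change of 2.0164. POU2F1 with senECs against control ECs had -0.358 (adjusted p = 0.0858 by edgeR) under the block and -0.3963 (adjusted p = 0.0172) with the numbers joined, the call named above. Against mono-culture the block called 4 and 1 coactivators and 1 and 1 B lymphoid factors with senECs and EGCG-treated senECs, 1 H2B gene with control ECs, and 3, 3 and 2 monocyte markers in the 3 co-cultures in the same order. Against control ECs it called 3 H2B genes and 1 monocyte marker with senECs and 2 H2B genes with EGCG-treated senECs.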
